A study of Homo sapiens with 14 samples.

Results

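This comparison covers 6 of the 14 RNA-seq libraries of a ddC time course in IMR90 cells: the 3 libraries taken after 72 h of the drug were set against the 3 taken after 48 h, and untreated cells did not serve as the baseline. IMR90 is an established human cell line of fibroblasts from fetal lung, used here as unmodified, wild-type cells, so each group models 1 line in culture. All cells were grown in EMEM with 10% fetal bovine serum under 5% CO2, and both groups received 20 uM 2',3'-dideoxycytidine (ddC), for 72 h in one and for 48 h in the other. The remaining libraries are 3 at 24 h, 3 at 96 h and 2 of untreated cells, for which the design text gives 0 h and the sample labels name water for 4 days, so their time in culture is uncertain. Polyadenylated RNA was sequenced with a stranded kit. Total counts were 11686490 to 12086869 at 72 h and 10810326 to 12131902 at 48 h, and 13371 of 27142 listed genes passed the filter on low counts and entered the tests.

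ddC is a cytidine analog that lacks the hydroxyl group needed to extend a DNA chain. DNA polymerase gamma, the polymerase of mitochondria, inserts it into mitochondrial DNA (mtDNA), replication stops, and cells that go on dividing dilute what mtDNA they had. Fibroblasts can take up a contractile, matrix-producing state, the myofibroblast of wounds and scars, which is marked by smooth muscle alpha-actin in stress fibres and by secreted collagen and elastin. Many smooth muscle genes are known to be switched on by serum response factor, which binds a short DNA element called the CArG box.

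The cells carried the markers of their label: all 11 fibroblast markers were tested, and their summed level was 54700 to 57700 CPM (reads of a gene per 1e+06 reads of its library, after TMM scaling) at 72 h and 50300 to 55100 CPM at 48 h. The epithelial sum was 64.8 to 73.6 CPM at 72 h and 60.4 to 69.8 CPM at 48 h, with CDH1, KRT5, SFTPC, SFTPB and SCGB1A1 (5 of 11) at 0 in both groups. Most of its reads were KRT18 (1824 in all at 72 h and 1622 at 48 h) and KRT8 (335 and 344). The endothelial sum was 37.9 to 40.4 CPM at 72 h and 42.5 to 43.6 CPM at 48 h, with PECAM1 and CDH5 (2 of 8) at 0 in both. Nearly all of its reads were TEK (1235 in all at 72 h and 1365 at 48 h) and TIE1 (98 and 102). In blood-cell markers the sum was 43.3 to 51.1 CPM at 72 h and 54 to 61.1 CPM at 48 h, almost all of it CD68, with CD3E, LYZ, HBA1 and HBA2 (4 of 10) at 0 in both.

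Measures of the libraries also differed within and between the groups. Abundant genes (at least 200 CPM) were paired with overlapping genes listed on the opposite strand that had under 1% of their level, in 112 pairs. The neighbours' own transcription enters this measure, called opposite-strand reads here. These reads were 1.03, 1.14 and 1.12 per 1000 reads of the abundant genes at 72 h, against 0.885, 0.897 and 1.10 at 48 h. Replicate 3 of 48 h therefore lay with the 72 h libraries. At 24 h the measure was 0.766 to 0.901 and at 96 h 1.09 to 1.17. MALAT1, a long RNA kept in the nucleus, had 391, 409 and 81.5 CPM at 72 h, against 52.1, 264 and 178 CPM at 48 h. Its level varied more among replicates than between the groups. The part of both measures in the results was not tested. Fits with each measure as a covariate are given beside the results.

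Between 48 h and 72 h of ddC a small group of genes rose, led by ACTA2, which encodes smooth muscle alpha-actin. They encode actin and an actin-binding protein (ACTA2, TAGLN), matrix components (ELN, COL4A1), cell-surface and pericellular proteins (ITGA1, SULF1, CORIN) and a signalling inhibitor (ERRFI1). These 8 genes, 0.0598% of the 13371 tested, were called higher at 72 h by edgeR's quasi-likelihood test at a Benjamini-Hochberg adjusted p under 0.05, with rises of 1.27- to 1.56-fold. No gene was called lower (0 genes, 0%), whereas at an unadjusted p under 0.05 there were 397 higher (2.97%) and 315 lower (2.36%). DESeq2 called 1 gene lower and limma-voom 0. Most differences were small: over all genes tested the median log2 fold change was -0.00 and the median of its size 0.08.

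**Figure D1:**
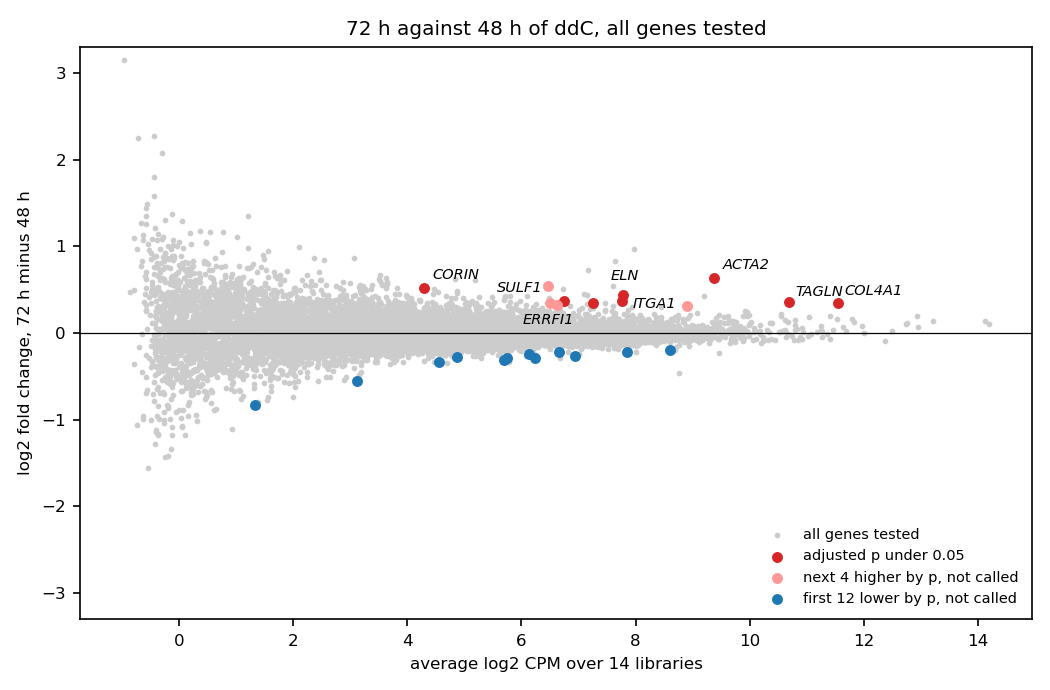
Log2 fold change of 72 h against 48 h of ddC (y axis) by average log2 CPM over 14 libraries (x axis) for the 13371 genes tested, each a point. The 8 called genes (dark red) all lie above 0, the next 4 higher genes (light red) and the first 12 lower genes (blue) did not pass the test.

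The promoters of the pair of smooth muscle actin genes are shown because ACTA2 leads the comparison and ACTG2, its enteric counterpart, stands among the genes next in order. They are RefSeq sequences on build GRCh38.p14, from 250 bases before to 50 bases after the start of the transcript. Capitals mark CArG-like elements, which begin with CC, end with GG and have at least 5 of 6 inner letters A or T.
ACTA2, chr10:88952724-88953023, minus strand: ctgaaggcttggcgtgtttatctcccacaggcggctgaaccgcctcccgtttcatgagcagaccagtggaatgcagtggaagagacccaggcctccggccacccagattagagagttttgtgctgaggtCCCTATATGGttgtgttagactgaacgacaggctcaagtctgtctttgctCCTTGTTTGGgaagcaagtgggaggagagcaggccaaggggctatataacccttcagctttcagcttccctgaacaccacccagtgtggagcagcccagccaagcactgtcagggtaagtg
ACTG2, chr2:73892758-73893057, plus strand: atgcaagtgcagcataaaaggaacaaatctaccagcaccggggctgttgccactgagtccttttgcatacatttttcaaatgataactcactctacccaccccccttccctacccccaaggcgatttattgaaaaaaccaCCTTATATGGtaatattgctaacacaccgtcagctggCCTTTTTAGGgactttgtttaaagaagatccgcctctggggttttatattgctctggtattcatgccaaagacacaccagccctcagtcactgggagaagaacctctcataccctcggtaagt
In ACTA2 the elements begin 121 and 71 bases before the start, and in ACTG2 110 and 73 bases before it. Of the 12 genes named as higher, 9 had a promoter in the RefSeq table, with 11 windows in all, and CArG-like elements were in 2 of those 11 windows and in 8.13% of all 35116. The strict CArG box, with A or T in all 6 inner letters, was in 1 of the 11 (ACTG2) and in 1.29% of all windows. ACTA2 also has a window at an upstream start (chr10:88991288-88991587), which holds 0 CArG-like elements. The ACTA2 transcript named in the counts, NM_001141945, begins near that upstream start and not at the window printed. Which start the reads came from was not tested. The looser form was chosen after the sequences were seen, both strands were searched, and a match is a description of the letters only.

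Of the other letters searched on both strands, TATAAA was in windows of CEMIP, THBS2 and ACTG2 (3 of 11, against 11.5% of all windows) and CCAAT in those of COL4A1 and ERRFI1 (2 of 11, against 34.6%). ACGTG, the core of the element bound by hypoxia-inducible factors, was in that of THBS2 (1 of 11, against 21.4%). None of the 11 windows held TTTGGCGC or TTTCCCGC (2.27% of all), GTCTAGAC (0.202%) or TGANTCA (7.71%).

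Among the contractile genes, ACTA2 (NM_001141945, hg19 chromosome 10, 90694831 to 90751154, minus strand) had 787, 698 and 886 CPM at 72 h, against 491, 524 and 509 CPM at 48 h. Every 72 h library lay above every 48 h library, and the 72 h libraries were farther apart from each other than those of 48 h. Its mean was 790.4 ± 94.1 CPM at 72 h and 507.6 ± 16.5 CPM at 48 h (SD, n = 3 each), a log2 fold change of 0.64 ± 0.07 (SE) with an edgeR adjusted p of 0.000146. ACTA2 overlaps FAS, a death receptor gene on the opposite strand, which had 2110 reads at 72 h and 2104 at 48 h in all. It also overlaps ACTA2-AS1 on that strand, which had 43 reads at 72 h and 17 at 48 h in all. Actin genes are nearly identical in their coding parts, so how the authors' counting divided reads among them is uncertain. In bulk RNA, more cells with the transcript and more of it per cell cannot be told apart, here and below.

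TAGLN (NM_003186, chromosome 11, 117070040 to 117075508, plus strand) encodes transgelin, which binds and stabilises actin filaments in smooth muscle. It had 1861, 1742 and 2040 CPM at 72 h, against 1495, 1513 and 1410 CPM at 48 h, with no overlap. The log2 fold change was 0.35 ± 0.06, with an adjusted p of 0.0274 in the same edgeR test. Per kilobase of transcript, TAGLN was the most abundant of the 8 genes, at 1630 CPM per kb at 72 h and 1280 at 48 h. COL4A1 followed with 489 and 385, and ACTA2 with 451 and 289 CPM per kb at 72 h and 48 h.

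Of the matrix genes, ELN (NM_000501, chromosome 7, 73442119 to 73484236, plus strand) encodes tropoelastin, the soluble unit of elastic fibres. It had 227.5, 229 and 265.5 CPM at 72 h, against 180.4, 183 and 168 CPM at 48 h, and the groups did not overlap. Its log2 fold change was 0.44 ± 0.08 with an edgeR adjusted p of 0.0274. COL4A1 (NM_001845, chromosome 13, 110801305 to 110959504, minus strand) encodes a chain of the type IV collagen of basement membranes. With 3077, 3231 and 3204 CPM at 72 h and 2390, 2598 and 2503 CPM at 48 h, it was the called gene with the most reads. It rose by 0.34 ± 0.06 on the log2 scale (adjusted p = 0.0205, edgeR), and here too the groups were apart. Both untreated libraries, at 2782 and 2888 CPM, lay below the 72 h libraries and above the 48 h libraries.

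At the cell surface, ITGA1 (NM_181501, chromosome 5, 52084136 to 52249485, plus strand) encodes the alpha chain of a collagen-binding integrin. It had 238, 246 and 232 CPM at 72 h, against 173, 189 and 194 CPM at 48 h. The gene overlaps PELO, a ribosome rescue factor, on the same strand, and PELO had 3968 reads at 72 h and 3705 at 48 h with a log2 fold change of 0.08 ± 0.06 (edgeR adjusted p = 0.939). SULF1 (NM_001128205, chromosome 8, 70405028 to 70573147) encodes an enzyme that removes sulfate from heparan sulfate chains outside the cell. Its levels were 107, 106 and 110.2 CPM at 72 h and 78.6, 84.3 and 86.4 CPM at 48 h. CORIN (NM_006587, chromosome 4, 47596015 to 47840123, minus strand), a membrane protease known for activating atrial natriuretic peptide in the heart, was the lowest of the 8, with 22.2, 20.6 and 22.9 CPM at 72 h and 14.9, 14.9 and 16.0 CPM at 48 h. All 3 genes had groups without overlap. The log2 fold changes were 0.37 ± 0.06 for ITGA1 (edgeR adjusted p = 0.0185), 0.37 ± 0.07 for SULF1 (0.0274) and 0.52 ± 0.10 for CORIN (0.033).

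ERRFI1 (NM_018948, chromosome 1, 8071779 to 8086393, minus strand) encodes a feedback inhibitor of the epidermal growth factor receptor. It had 160.4, 151 and 172 CPM at 72 h, against 122, 128 and 129 CPM at 48 h. The groups did not overlap, and the log2 fold change was 0.35 ± 0.06 with an edgeR adjusted p of 0.0274.

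**Figure D2:**
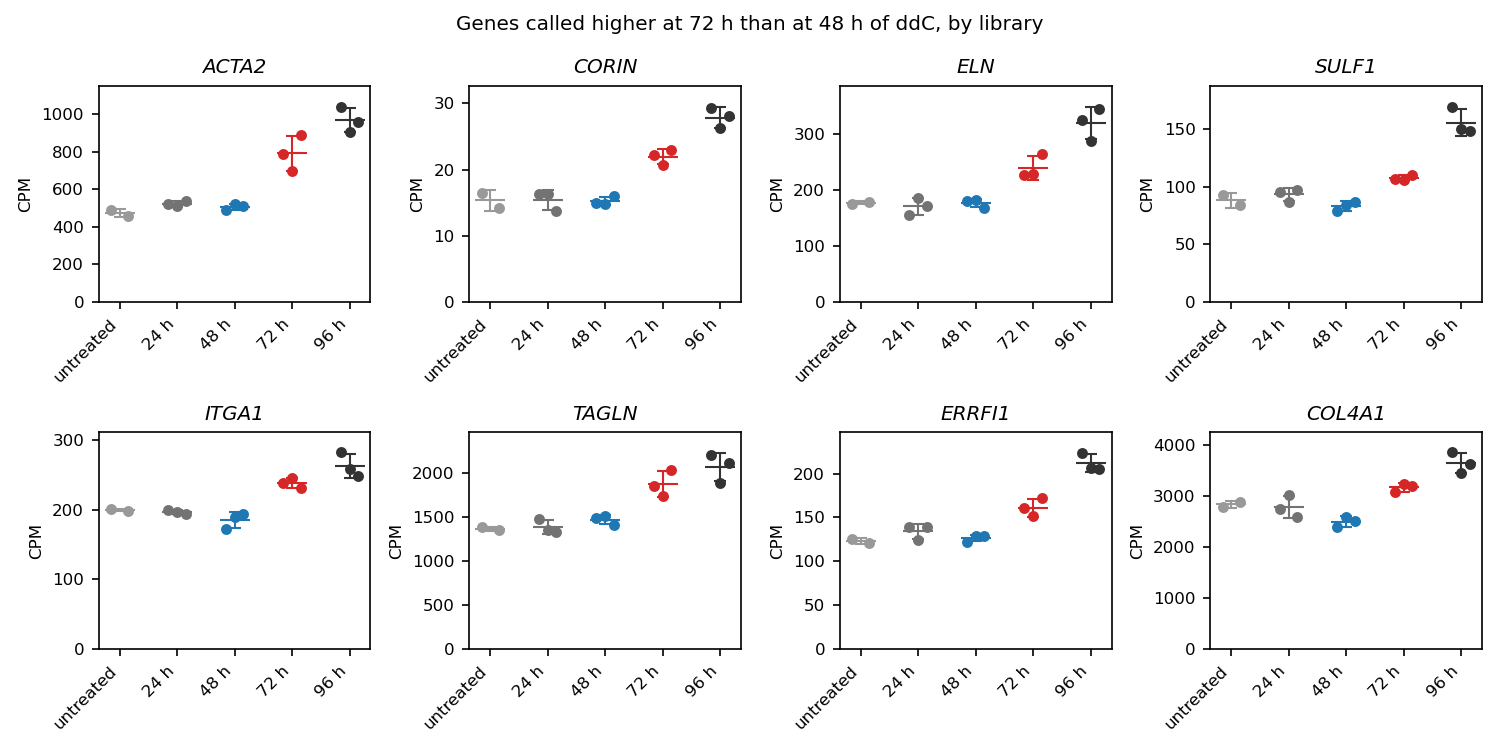
CPM (y axis, from 0) of the 8 genes called higher at 72 h (red) than at 48 h (blue) of ddC, with the other times in grey, from untreated to 96 h (x axis). Points are libraries and bars the mean ± SD; in all 8 genes the 3 libraries at 72 h lie above the 3 at 48 h, as in ACTA2 at 698 to 886 CPM against 491 to 524 CPM.

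The calls of these genes depended on single libraries, except that of ACTA2, which was called with each of the 14 libraries left out in turn (highest adjusted p 0.00534). Without replicate 1 of 72 h, or without replicate 1 of 48 h, ACTA2 was the only gene called. Without replicate 3 of 48 h, whose opposite-strand reads were like those of 72 h, the 8 genes had log2 fold changes of 0.32 to 0.64, and ACTA2 (adjusted p = 0.00353) and ITGA1 (0.0237) were called among them. With that library as the whole 48 h group, the 8 had 0.30 to 0.63. This leaves 1 library in the group, assumed to vary like the other groups, so its 0 calls (ACTA2 had an adjusted p of 0.243) say nothing about stability. With opposite-strand reads as a covariate in the edgeR fit they had 0.29 to 0.64, and ACTA2 was called (0.00958) but not the other 7. With nuclear RNA as a covariate they had 0.31 to 0.66 and all 8 were called, among 62 genes called higher in that fit.

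The next 4 genes in the higher direction did not pass the test, each with an edgeR adjusted p of 0.071. CEMIP, which takes part in breaking down hyaluronan, had 105, 96.6 and 98.7 CPM at 72 h, against 62.6, 75.3 and 67.5 CPM at 48 h, a log2 fold change of 0.54 ± 0.10. ACTG2, the enteric smooth muscle gamma-actin, had 519, 486 and 591 CPM at 72 h, against 421, 443 and 427 CPM at 48 h (0.31 ± 0.06). THBS2, a matrix thrombospondin, had a difference of 0.33 ± 0.07 and C1orf198 one of 0.35 ± 0.07. In all 4 the groups did not overlap, which was true of 4.86% of all genes in this direction and was required for naming a gene here. All 4 were called by DESeq2, with no filter on low counts and with nuclear RNA as a covariate (adjusted p 0.000118 to 0.00362 in that fit). None of the 4 was called by limma-voom or with opposite-strand reads as a covariate. Without replicate 3 of 48 h their edgeR adjusted p was 0.31 to 0.345. With each of the 14 libraries left out in turn, C1orf198 was called in 1 fit, and CEMIP, THBS2 and ACTG2 in 2 fits each.

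For these 12 genes, the named 8 and 4, the levels at the other times are a description. In all 12, every 72 h library lay above both untreated libraries, as in 12% of all genes tested, and above every 24 h library, as in 4.88%. Since the 72 h and 48 h libraries chose the genes, nothing is read from these shares or from those that follow for either group. The 48 h libraries overlapped those of 24 h in 10 of the 12 and lay below them in ITGA1 and SULF1 (3.82% of all genes). Against the untreated libraries, those of 48 h overlapped in 6 genes, lay above in ACTA2, TAGLN and ACTG2 (11.7% of all genes), and lay below in ITGA1, COL4A1 and THBS2 (12%). The 96 h libraries were above all 72 h libraries in 10 genes, against 9.26% of all genes, and overlapped them in TAGLN and ACTG2. ACTA2 itself had 488 and 458 CPM in untreated cells, 520.5, 509 and 536 CPM at 24 h, 491, 524 and 509 CPM at 48 h, 787, 698 and 886 CPM at 72 h and 1035, 906 and 960.2 CPM at 96 h. Its libraries up to 48 h thus stayed between 458 and 536 CPM, and all later ones were above.

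Whether the step from 48 h to 72 h differed from its neighbours was tested directly, with steps that share libraries. The 72 h step minus the 48 h step (48 h minus 24 h), in which the 48 h libraries enter both, had 0 genes called by edgeR (0%) and 551 at an unadjusted p under 0.05 (4.12%); DESeq2 called 9 and limma-voom 0. ACTA2 had the smallest p in that test, with a difference of 0.68 ± 0.12 on the log2 scale (unadjusted p = 1.65e-05, adjusted p = 0.221). The 72 h step minus the 96 h step (96 h minus 72 h) also had 0 genes called (0%), with 700 at an unadjusted p under 0.05 (5.24%), and DESeq2 and limma-voom called 0 each. ACTA2 had a difference of 0.35 ± 0.12 there (adjusted p = 0.848). For no gene did the edgeR fit reported therefore show the 72 h step to be larger or smaller than the step before it or after it. Some other edgeR fits called genes for the 72 h step minus the 48 h step, all higher. There were 12 with nuclear RNA as a covariate, 2 with no filter on low counts, 1 with a replicate block and 1 without replicate 2 of 72 h.

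The comparison of 96 h with 24 h sets apart libraries other than these 6 and was examined for the same genes. Its fold changes come from those other libraries, but each gene's spread was estimated over all 14, these 6 included. Calls there of the named genes, higher or lower, are therefore not independent of how the genes were chosen. All 12 were above 0 (46.5% of all genes) and all 12 were called higher at 96 h, where 2.58% of all genes tested were, and none of the 12 overlapped between the groups, which was true of 10.8% of all genes in this direction. Their log2 fold changes were 0.39 to 0.90 with a median of 0.64, the highest being those of ELN (0.90, adjusted p = 1.08e-06) and ACTA2 (0.89, adjusted p = 5.1e-07), both by edgeR. That these genes are higher at 96 h was known from earlier results of these data and is a description here. Opposite-strand reads were higher in all 96 h libraries than in all 24 h libraries, and their part in this was not tested beyond the covariate fit, in which 17 genes were called between 96 h and 24 h in place of 428 (3.2%).

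**Figure D3:**
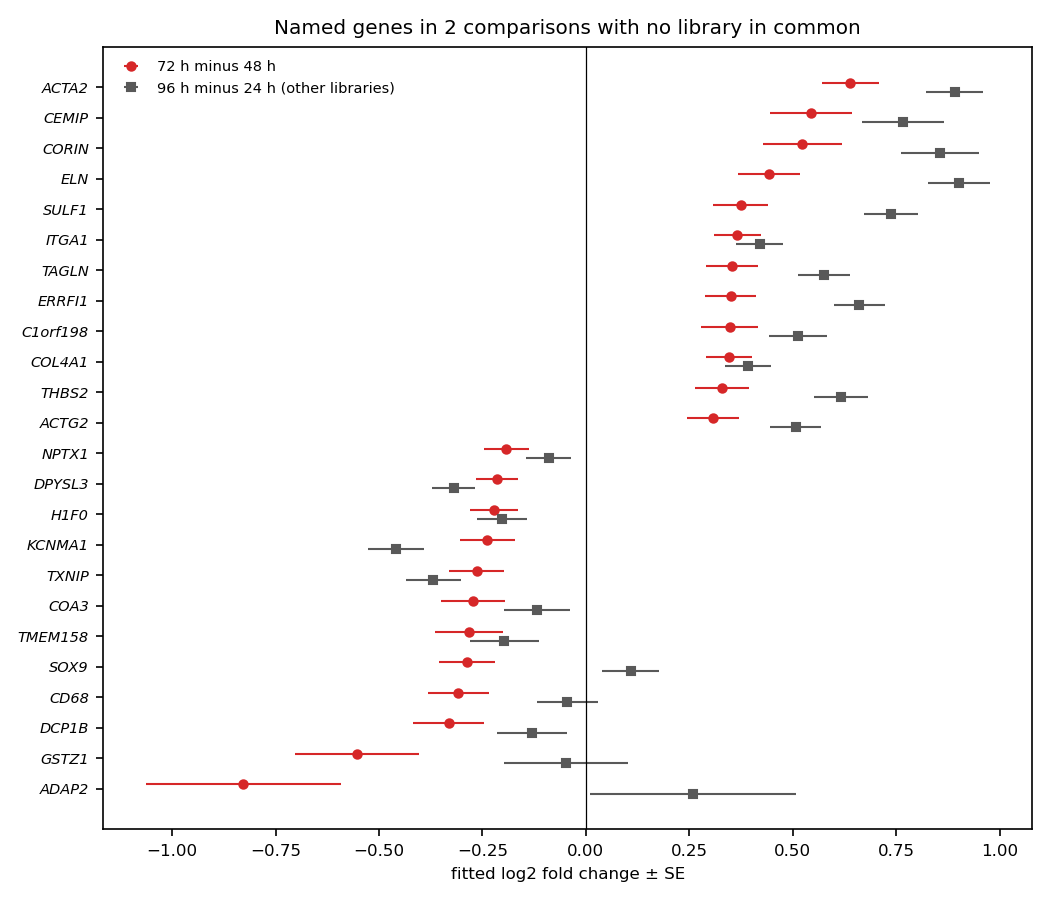
Fitted log2 fold change ± SE (x axis) of the 12 genes named as higher and the 12 named as lower, for 72 h minus 48 h (red circles) and for 96 h minus 24 h in other libraries (grey squares). The 12 higher genes lie above 0 in both, whereas of the 12 lower genes 10 lie below 0 at 96 h minus 24 h.

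The 12 genes named as lower at 72 h, chosen by the smallest p among genes without overlap, all failed the test, with edgeR adjusted p of 0.216 to 0.43. With nuclear RNA as a covariate 4 of them were called, DPYSL3 (adjusted p = 0.0144), TXNIP (0.0267), CD68 (0.0337) and SOX9 (0.0373), and DPYSL3 was also called by DESeq2. The nuclear RNA fit called 67 genes in all, 5 of them lower. The 12 were chosen by p in the same libraries, so nothing is read from this count. DPYSL3, a cytoskeletal protein of the collapsin response family, had 211, 220.3 and 210 CPM at 72 h, against 255, 241 and 247 CPM at 48 h (log2 fold change -0.21 ± 0.05). CD68, a lysosomal membrane protein that also marks macrophages, had 43.0, 47.8 and 50.7 CPM at 72 h, against 60.8, 53.6 and 60.7 CPM at 48 h (-0.31 ± 0.07). These values are also nearly the whole of the blood-marker sum. SOX9, a transcription factor of cartilage, had -0.29 ± 0.07, and TXNIP, an inhibitor of thioredoxin and of glucose uptake, had -0.26 ± 0.07. The others were DCP1B (-0.33), H1F0 (-0.22), GSTZ1 (-0.55), KCNMA1 (-0.24), ADAP2 (-0.83), COA3 (-0.27), NPTX1 (-0.19) and TMEM158 (-0.28), and ADAP2 had fewer than 4 CPM in all 6 libraries.

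Between 96 h and 24 h the 12 lower genes had log2 fold changes of -0.46 to 0.26, 10 of them below 0. DPYSL3 (-0.32), TXNIP (-0.37) and KCNMA1 (-0.46) were called lower there, 3 of the 12 where 0.621% of all genes tested were. SOX9 (0.11) and ADAP2 (0.26) were the 2 above 0. In CD68 the value was -0.05 with an edgeR adjusted p of 0.82.

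Gene lists, which were chosen with earlier results known, are given by counts beside those over all genes, of which 48.9% were above 0 and 4.86% higher without overlap. A further 4.92% of all genes were lower without overlap. At an unadjusted p under 0.05, 2.97% of all genes were higher and 2.36% lower, the shares for such counts in every list below. In the contractile and actin-binding list 39 of 41 genes tested were above 0, the median log2 fold change was 0.12, and 16 were higher without overlap and 0 lower. Called members were ACTA2 and TAGLN. Next came ACTG2 and then TPM1, a tropomyosin that lies along actin filaments (0.22 ± 0.05, adjusted p = 0.0758), and CALD1, caldesmon (0.20 ± 0.05, 0.223). CNN1, a calponin of smooth muscle, had 0.29 ± 0.08 (0.339) and MYL9, a myosin light chain, 0.20 ± 0.06 (0.549), both by edgeR. In the same list, the median was 0.04 for 48 h minus 24 h and 0.05 for 96 h minus 72 h. The list mean of log2 CPM, relative to the mean of 48 h, was 0.17, 0.12 and 0.16 at 72 h, against -0.03, 0.07 and -0.04 at 48 h, so that the libraries did not overlap but replicate 2 of 48 h came near.

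Of the collagens and other matrix genes, 37 of 40 tested were above 0, with a median of 0.12, 13 higher without overlap and 1 lower. COL4A1 was the called member. COL3A1, a fibrillar collagen, had 2035, 2145 and 2149 CPM at 72 h, against 1807, 1897 and 1844 CPM at 48 h (0.19 ± 0.05, edgeR adjusted p = 0.26). Its 72 h libraries overlapped those of 24 h (2071, 2262 and 2067 CPM) and lay above the untreated ones (2020 and 1997 CPM). The log2 fold change of COL3A1 for 48 h minus 24 h was -0.21 ± 0.05. COL4A2, the partner chain of COL4A1, had 0.19 ± 0.06 (0.604) and COL1A2 had 0.14 ± 0.05 (0.612). In this list the median was -0.09 for 48 h minus 24 h, a comparison that shares the 48 h libraries, and 0.16 for 96 h minus 72 h. Among 18 elastic fibre genes 13 were above 0 (median 0.10), 4 were higher without overlap and ELN was called. LOX, the enzyme that crosslinks elastin and collagen, had 996.7, 1004 and 1055 CPM at 72 h, against 848, 904 and 905 CPM at 48 h (0.20 ± 0.05, adjusted p = 0.271).

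Genes known to respond to TGF-beta, the cytokine best known for inducing myofibroblasts, were not all on one side. Of 28 tested, 15 were above 0 with a median of 0.07, 9 were higher without overlap and 2 lower, and 0 were called by edgeR, with 9 higher and 3 lower at an unadjusted p under 0.05. IGFBP3, a carrier of insulin-like growth factors, had 652, 590.3 and 711 CPM at 72 h, against 486, 489 and 475 CPM at 48 h (0.43 ± 0.08, adjusted p = 0.0758). INHBA, an activin subunit, had 0.19 ± 0.05 (0.327). ID1 and SMAD6, which respond to the related BMP signals, had -0.24 ± 0.08 (0.549) and -0.26 ± 0.09 (0.668).

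**Figure D4:**
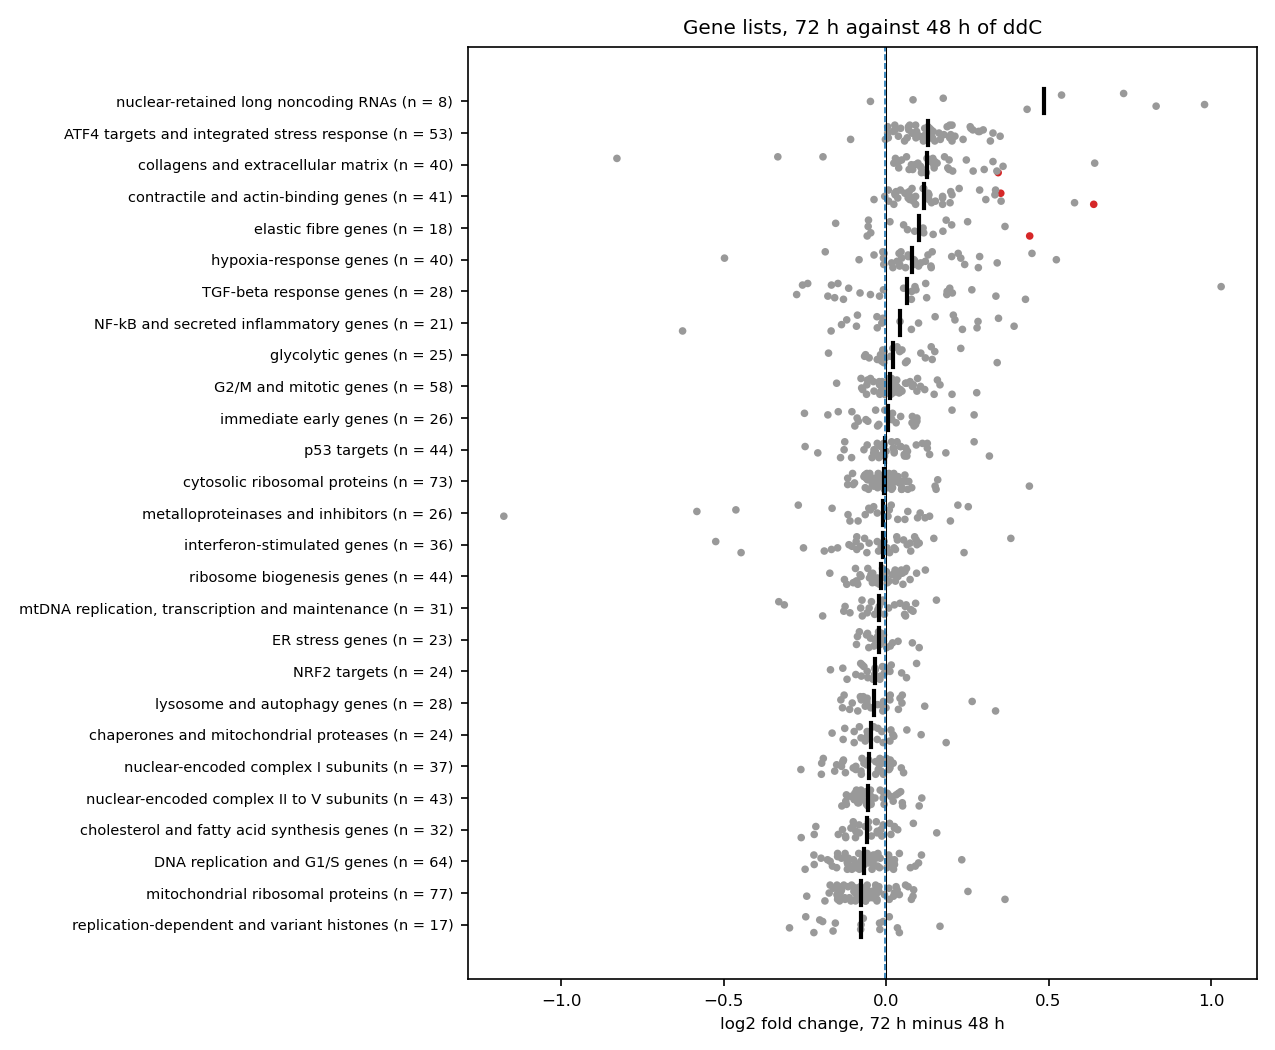
Log2 fold change of 72 h against 48 h (x axis) of each tested member (points, called members in red) of 27 gene lists (rows, with the number tested), sorted by median (black bar), beside the median of all genes tested (dashed line, -0.00). The ATF4, matrix and contractile lists have medians of 0.12 to 0.13, while the p53 list has -0.00.

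In the list of ATF4 targets, the genes of the integrated stress response that supply amino acids and folate-linked carbon when mitochondria or translation falter, 51 of 53 tested were above 0. Their median was 0.13, 28 were higher without overlap and 0 lower, and 0 passed edgeR's adjusted threshold, with 24 higher and 0 lower at an unadjusted p under 0.05. ALDH1L2, a mitochondrial folate enzyme, had 168, 173 and 145 CPM at 72 h, against 121, 132 and 136 CPM at 48 h (0.32 ± 0.07, adjusted p = 0.0866). PSAT1 and PHGDH, enzymes of serine synthesis, had 0.27 ± 0.06 (0.102) and 0.21 ± 0.05 (0.223), and ATF4 itself had 0.20 ± 0.05 (0.242). ASNS, asparagine synthetase, had 170, 176 and 174.5 CPM at 72 h, against 154, 143.5 and 161.5 CPM at 48 h (0.18 ± 0.06, 0.604). At 24 h ALDH1L2 had 146.5 to 154.9 CPM, PSAT1 210.5 to 245.3 CPM and ASNS 162.6 to 182.1 CPM, and their 72 h libraries overlapped these. The 72 h libraries of PHGDH lay above its 24 h libraries (231.7 to 241.2 CPM). The list median was -0.06 for 48 h minus 24 h, a comparison that shares the 48 h libraries, and 0.14 for 96 h minus 72 h. Its library means were 0.11, 0.13 and 0.18 at 72 h, against -0.02, 0.03 and -0.01 at 48 h, without overlap.

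Hypoxia-response genes, 32 of 40 of them above 0, had a median of 0.08, with 12 higher without overlap, 1 lower and 0 called by edgeR (7 higher and 2 lower at an unadjusted p under 0.05). HK2, the inducible hexokinase, had 42.2, 37.4 and 39.3 CPM at 72 h, against 28.5, 33.9 and 31.4 CPM at 48 h (0.34 ± 0.09, adjusted p = 0.31). DDIT4, an inhibitor of mTOR signalling that is in the ATF4 list as well, had 74.2, 81.5 and 88.0 CPM at 72 h, against 68.3, 68.5 and 63.4 CPM at 48 h (0.28 ± 0.07, 0.242). Its 24 h libraries, at 72.85 to 78.94 CPM, overlapped those of 72 h. CA9, a carbonic anhydrase, was low, at 2.80, 1.88 and 2.86 CPM at 72 h and 1.84, 1.87 and 1.54 CPM at 48 h (0.52 ± 0.24, 0.919).

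The p53 targets were spread evenly: 22 of 44 were above 0, the median was -0.00, and no member had an unadjusted p under 0.05 (0 genes). CDKN1A, the cyclin-dependent kinase inhibitor p21, had 642.5, 630.2 and 747 CPM at 72 h, against 678.5, 631 and 620 CPM at 48 h (0.07 ± 0.07, edgeR adjusted p = 0.939). The groups overlapped for CDKN1A, and for GDF15, a secreted stress cytokine, which had 24.3, 25.9 and 26.4 CPM at 72 h and 26.9, 26.9 and 21.7 CPM at 48 h (0.02 ± 0.12, 0.986). DNA replication and G1/S genes had 15 of 64 above 0 and a median of -0.07, with 8 lower without overlap (4.92% of all genes), 1 higher and 0 called (0 higher and 7 lower at an unadjusted p under 0.05). POLA1, the catalytic subunit of DNA polymerase alpha, had 22.6, 22.5 and 21.7 CPM at 72 h, against 25.5, 24.9 and 28.9 CPM at 48 h (-0.25 ± 0.09, 0.663). For the G2/M and mitotic genes, 38 of 58 were above 0 with a median of 0.01.

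**Figure D5:**
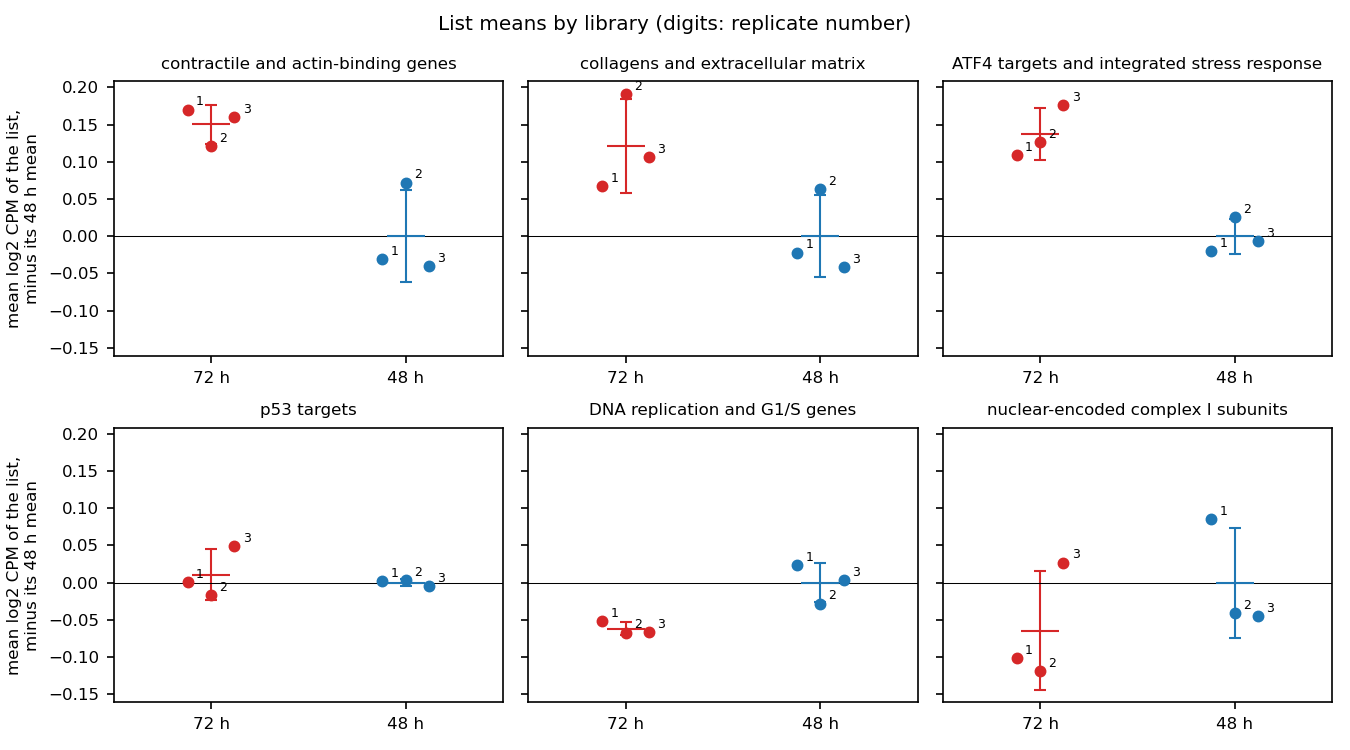
Mean log2 CPM of 6 gene lists in each library at 72 h (red) and 48 h (blue), relative to the list's mean at 48 h (y axis), with the mean ± SD of 3 libraries and replicate numbers beside the points. The contractile, matrix and ATF4 lists have all 72 h libraries above all 48 h libraries, the DNA replication list has them below, and the p53 and complex I lists overlap.

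Genes for the mitochondrion itself, which ddC acts on, gave 0 calls in the lists tested. Nuclear-encoded complex I subunits had 9 of 37 above 0 and a median of -0.05, subunits of complexes II to V had 10 of 43 and -0.06, and mitochondrial ribosomal proteins had 14 of 77 and -0.08. At an unadjusted p under 0.05 there were 0 higher and 4 lower among complex I subunits, 0 either way among complexes II to V, and 1 higher and 4 lower among mitochondrial ribosomal proteins. Over all genes tested, 2.97% were higher and 2.36% lower at that threshold. The library means of these 3 lists overlapped between the groups, with replicate 3 of 72 h above the other 72 h replicates in each. Of the genes that copy, transcribe and maintain mtDNA 11 of 31 were above 0, with a median of -0.02. TFAM, which packages mtDNA, had 45.2, 40.5 and 43.0 CPM at 72 h, against 45.9, 41.8 and 47.8 CPM at 48 h (-0.07 ± 0.08). POLG, the catalytic subunit of the polymerase that ddC inhibits, had 63.8, 66.4 and 51.1 CPM at 72 h and 53.9, 66.1 and 55.9 CPM at 48 h (0.04 ± 0.12).

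Over the 27 lists, the library means of 5 were higher in all 72 h libraries than in all 48 h libraries: contractile, collagens and matrix, elastic fibre, ATF4 and hypoxia. In 4 they were lower: DNA replication, cholesterol and fatty acid synthesis, metalloproteinases and mtDNA maintenance. Some gaps were narrow: the lowest 72 h mean and the highest 48 h mean were 0.067 and 0.063 for the matrix list and 0.064 and 0.058 for the elastic fibre list, and for mtDNA maintenance the highest 72 h mean was -0.025 and the lowest 48 h mean -0.019. The other 18 overlapped. Nuclear-retained long noncoding RNAs had the highest median of any list, 0.49 over 8 genes, with values from 0.87 to -0.42 among the 72 h libraries and from 0.48 to -0.65 among those of 48 h, so that these means overlapped widely.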

How the data were processed

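RNA of 14 IMR90 libraries was compared across 5 groups, as GEO's labels give them. Per the submitters' processing notes, the authors used STAR 2.5.3a, HOMER and hg19; a strand setting is not given in the sources used here. The deposited values are raw counts per gene, and 0 per-sample columns were left unused and 0 rows lacked a gene name. The design text calls the libraries biological replicates, and nothing names separate cultures, so p-values measure the spread between these libraries.

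Genes passing filterByExpr (minimum count 10, minimum total count 15) were fitted with edgeR 4.0.16 (R 4.3.3, TMM factors 0.971 to 1.02, robust quasi-likelihood, 1 mean per group, all 14 libraries), and p-values were Benjamini-Hochberg adjusted over 13371 genes, two-sided, with a call at an adjusted p under 0.05. CPM was scaled by TMM; list means used a prior count of 3. SE is the log2 fold change over the square root of F. The code was tested on simulated data.

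Named genes were called genes without overlap between the groups and at or above 1 in average log2 CPM, filled to 12 per direction by unadjusted p, the 3 members of smallest p in each list, and a fixed set; Y-linked genes and X-inactivation transcripts were left out. Other list members named were chosen after their values were seen. The comparison, members and lists were chosen with earlier results of these data known. Alternatives were median-ratio factors, DESeq2 1.42.0, limma-voom (limma 3.58.1), no filter, a replicate block, only the groups compared, 2 library covariates, only replicate 3 at 48 h, and each library left out. Identical columns numbered 0, and r of log2 CPM among the 6 libraries was 0.9868 to 0.9951.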

Additional observations from a re-analysis of the deposited data

How the results depend on the processing

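The 24 genes named by direction kept their sign in all 23 alternatives or, for CORIN, DCP1B, GSTZ1, ADAP2 and COA3, in the 22 that gave them an adjusted p (DESeq2 gave none). The same sign was kept in 23 by the medians of the contractile (0.09 to 0.17), matrix (0.10 to 0.17), elastic fibre, ATF4 (0.11 to 0.15), hypoxia and DNA replication lists (-0.09 to -0.05). Other medians moved more: 0.01 to 0.07 for TGF-beta, -0.10 to -0.00 for complex I, -0.10 to -0.01 for complexes II to V, 0.06 to 0.73 for nuclear-retained RNAs, and -0.02 to 0.02 for p53 targets, which kept the sign in 12 of 23. Counts of calls also moved. For 72 h against 48 h, 8 in the fit reported, there were 30 with DESeq2 (29 higher, 1 lower, 7 shared), 2 with limma-voom, 20 with no filter, 67 with nuclear RNA as a covariate (62 higher, 5 lower), 1 with opposite-strand reads as a covariate and 0 with only replicate 3 at 48 h, where 409 genes had an unadjusted p under 0.05. For the 72 h step minus the 48 h step, 0 as reported, there were 9 with DESeq2, 2 with no filter and 12 with nuclear RNA. For 96 h against 24 h, 428 as reported, there were 1091 with nuclear RNA and 17 with opposite-strand reads. The cause was not tested. Leaving out 1 library gave 1 to 16 calls for 72 h against 48 h, 0 to 1 for the first step difference, 0 for the second and 223 to 545 for 96 h against 24 h. The count for 72 h against 48 h was 1 without replicate 1 of either group, 4 without replicate 2 and 3 without replicate 3 of 48 h, 3 without replicate 3 of 72 h, 4 without replicate 3 of 96 h and 16 without replicate 3 of 24 h. That for 96 h against 24 h was 259 without replicate 1 of 24 h, 223 without replicate 1 of 96 h and 262 without replicate 3 of 96 h. COL4A1, ERRFI1, SULF1, ELN, TAGLN, ITGA1 and CORIN each lost the call without at least 3 single libraries (highest adjusted p 0.295 to 0.364).

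Whether the replicate numbers pair the samples cannot be told from these values. Deviations of same-numbered libraries of 72 h and 48 h correlated at -0.476, 0.35 and -0.155 over 11990 genes. Those of differently numbered libraries correlated at -0.525 to 0.62, so differences among libraries that do not follow the number could hide a pairing. With the number as a replicate block 15 genes were called for 72 h against 48 h (8 shared with the fit without it), 1 for the 72 h step minus the 48 h step, 0 for the step minus the 96 h step and 478 for 96 h against 24 h.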

Other observations

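Some secreted and inflammatory genes outside the called set had groups that did not overlap. Among the 21 inflammatory genes tested, 3 were higher without overlap (4.86% of all genes) and 1 lower (4.92%). The genes given here were named with their values in these libraries known, so nothing is read from their lack of overlap. CXCL8, a chemokine for neutrophils, had 2.72, 2.99 and 2.52 CPM at 72 h, against 4.51, 3.99 and 4.21 CPM at 48 h (log2 fold change -0.63 ± 0.19, edgeR adjusted p = 0.488). IL11, a cytokine linked to fibroblast activation, had 91.6, 87.1 and 99.3 CPM at 72 h, against 86.4, 75.9 and 77.8 CPM at 48 h (0.21 ± 0.07, 0.54). PTGS2, the inducible cyclooxygenase, had 10.6, 8.79 and 11.01 CPM at 72 h, against 7.74, 7.13 and 8.26 CPM at 48 h (0.39 ± 0.14, 0.723). Over the 21 inflammatory genes tested, 11 were above 0 with a median of 0.04, so the members lay on both sides.

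MMP1, the interstitial collagenase, had 331, 402 and 380.4 CPM at 72 h, against 552, 429 and 552 CPM at 48 h (-0.46 ± 0.13, edgeR adjusted p = 0.529). ADAM19, a membrane metalloproteinase, had 238, 238 and 242 CPM at 72 h, against 209, 208.5 and 208 CPM at 48 h (0.20, 0.377). TIMP4, a metalloproteinase inhibitor, was under 2 CPM in every one of the 6 libraries (-1.18 ± 0.39, 0.606). Of 36 interferon-stimulated genes 17 were above 0 with a median of -0.01, and of 73 cytosolic ribosomal proteins 31 were, with a median of -0.01.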
